A study of Mus musculus with 4 samples.

Results

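The pluripotency genes *Pou5f1*, *Nanog*, *Zfp42*, *Klf2*, *Klf4*, *Esrrb*, *Dppa3*, *Dppa4*, *Dppa5a* and *Utf1*, were followed through a single-cell RNA time course of mouse gastruloids. They were taken by symbol from the feature lists, where all 10 were found among 32286 genes. Gastruloids are aggregates of embryonic stem (ES) cells that pass through steps resembling gastrulation, and those used here were grown toward heart and skeletal muscle. Cells were sampled at days 4, 5, 6 and 11, with 1 library for each day and no replicate, so that day and library cannot be told apart. Every library came from wild-type Zx1 cells, a single ES cell line, and from pooled gastruloids, so the spread between lines or between gastruloids was not measured. All had received a pulse of the Wnt agonist CHIR99021 after aggregation. Basic FGF, VEGF and ascorbic acid were added from day 4 and withdrawn before day 11, so the day 4 cells had the shortest or no exposure to them, the day 5 and day 6 cells were in these factors, and the day 11 cells were in basal N2B27 medium.

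In ES cells, the POU factor encoded by *Pou5f1* (Oct4) acts with SOX2 on shared DNA elements, and NANOG, ESRRB, KLF2 and KLF4 join it in keeping the naive state. When cells enter gastrulation the naive genes are silenced first, *Pou5f1* and *Nanog* are kept for a time in the epiblast and primitive streak, and all are shut down as germ layers form. Primordial germ cells keep or regain *Pou5f1*, *Nanog* and *Dppa3*. *Klf2* and *Klf4* have other uses, among them in endothelium, where both respond to flow.

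The promoters of 3 members are shown because they carry short motifs of the factors that the members encode or partner with. RefSeq sequences on GRCm38.p6 running from 250 bases before to 50 bases after the start were matched for 7 of the 10 genes, and *Dppa3*, *Dppa4* and *Dppa5a* had no entry. Capitals mark the motif, each sequence is given 5′ to 3′ on the strand of its gene, and motifs were searched on both strands. A match describes the letters and is not a bound site. The *Nanog* window, chr6:122707239-122707538 on the + strand, holds TTTGCATNACAATG, most of an octamer joined to a SOX motif, which begins 75 bases before the start.
Nanog: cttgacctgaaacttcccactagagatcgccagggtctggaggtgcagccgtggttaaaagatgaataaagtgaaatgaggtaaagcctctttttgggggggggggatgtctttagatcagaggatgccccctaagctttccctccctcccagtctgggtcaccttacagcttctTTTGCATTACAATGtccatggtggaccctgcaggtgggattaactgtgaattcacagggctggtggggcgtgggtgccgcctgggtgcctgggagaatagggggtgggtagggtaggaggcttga
This joined motif was looked for after the promoters had been read, occurs in 2 of 32851 mouse promoters (0.00609%), both of them entries of *Nanog*, and overlaps the SOX motif CATTGT on the other strand. The *Zfp42* window, chr8:43306960-43307259 on the − strand, holds the octamer ATGCAAAT, read here on its other strand and beginning 186 bases before the start. The octamer is present in 1.74% of all promoters.
Zfp42: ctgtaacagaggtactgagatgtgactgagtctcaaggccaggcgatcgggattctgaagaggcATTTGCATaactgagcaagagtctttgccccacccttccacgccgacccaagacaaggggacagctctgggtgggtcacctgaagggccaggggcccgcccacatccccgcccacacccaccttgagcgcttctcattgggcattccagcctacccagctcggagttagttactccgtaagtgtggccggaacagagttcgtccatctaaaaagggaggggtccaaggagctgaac
The *Pou5f1* window, chr17:35505782-35506081 on the + strand, holds the KLF motif GGGNGTGG on its other strand, beginning 80 bases before the start.
Pou5f1: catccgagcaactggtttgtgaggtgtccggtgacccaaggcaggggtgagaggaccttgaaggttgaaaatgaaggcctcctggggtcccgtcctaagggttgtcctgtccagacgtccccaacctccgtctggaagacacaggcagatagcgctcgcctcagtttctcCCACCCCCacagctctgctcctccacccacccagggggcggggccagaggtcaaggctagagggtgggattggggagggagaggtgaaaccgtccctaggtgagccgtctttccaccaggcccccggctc
The KLF motif is common, being in 17.6% of promoters, and was also found in those of *Nanog* and *Zfp42*. The shorter SOX motif CATTGT was in a window of *Esrrb*, *Nanog* and *Pou5f1* against 12.6% of all promoters, for *Pou5f1* in a second window further into the gene and not in the one printed, and the ESRRB motif CAAGGTCA was in none of the members' windows against 1.56%.

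After quality limits and removal of likely doublets, 6555, 6457, 5254 and 7849 cells remained at days 4, 5, 6 and 11. Their median depths were 24160, 28170, 24695 and 11415 unique molecular identifiers (UMIs, each counting 1 captured transcript), so day 11 was the shallowest. Between 5 and 23 cell barcodes were shared by any pair of libraries. Levels are given as UMIs of the gene per 1000000 UMIs (CPM), summed over the cells of a day, and shares of positive cells were taken after thinning each cell to 5000 UMIs. All intervals are exact 95% intervals that cover counting error only, and no test was possible between single libraries.

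*Pou5f1* was lower at each later day, whereas 8 of the other 9 members were at 0.732 to 1.18 times their day 4 level at day 5, and most were far lower at day 6. *Pou5f1* stood at 64.8 CPM (63.6 to 65.9) at day 4, 24.9 CPM (24.2 to 25.6) at day 5, 6.75 CPM (6.35 to 7.18) at day 6 and 2.35 CPM (2.08 to 2.65) at day 11. The 4 intervals do not overlap, and the last level was 27.5-fold lower than the first. Its positive cells made up 17.4%, 6.24%, 1.47% and 1.25% of thinned cells at the same days. In cells high for the mesoderm or cardiomyocyte genes *Hand1* or *Myl7*, which should lack *Pou5f1*, the shares were 4.91%, 0.955%, 0.637% and 0.499%. These comparison cells had median depths of 33225, 33162, 24150 and 19892 UMIs before thinning. At days 4, 5 and 6 they included 52, 6 and 1 cells with 3 or more *Pou5f1* UMIs.

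*Nanog*, the homeodomain factor of the naive core, had the next lowest ratio over this first step. It read 9.99, 5.33, 0.918 and 0.123 CPM at days 4, 5, 6 and 11, the last from 14 UMIs. The day 5 to day 4 ratio was 0.533 (0.494 to 0.575), against 0.385 (0.372 to 0.397) for *Pou5f1*. *Esrrb*, an orphan nuclear receptor of the naive network, had the fewest UMIs early and read 1.67, 1.58, 0.206 and 0.290 CPM. It was under the limit of 5 CPM set for counting a gene in comparisons between days.

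Genes used as markers of the naive and germ-cell states behaved differently over the same first step. *Dppa5a*, which encodes a KH-domain RNA-binding protein, read 285, 297, 44.8 and 4.49 CPM. *Utf1*, a chromatin-associated factor of ES cells, read 20.6, 20.3, 4.45 and 0.149 CPM. *Zfp42* (Rex1), a zinc-finger marker of naive cells, read 19.6, 17.9, 2.81 and 0.114 CPM. Their levels were nearly flat over the first step, with ratios of 1.04, 0.986 and 0.913, and the drop came a day later.

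*Dppa3* (Stella), which protects maternal DNA methylation in the zygote and marks germ cells, read 10.9, 8.68, 2.13 and 0.0176 CPM, the last from 2 UMIs. *Dppa4*, a SAP-domain chromatin protein, read 7.73, 9.13, 3.09 and 0.0615 CPM, the last from 7 UMIs. *Dppa4* was higher at day 5 than at day 4, with a ratio of 1.18 (1.10 to 1.27), and the ratio of *Dppa5a* had an interval of 1.03 to 1.05. For *Utf1* the interval of the ratio, 0.943 to 1.03, includes no difference.

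The Krüppel-like factors did not follow the others. *Klf2* read 19.3, 16.96, 23.9 and 27.4 CPM and was highest at day 11, with intervals of 18.6 to 19.9 at day 4 and 26.4 to 28.4 at day 11. *Klf4* read 11.9, 8.71, 4.57 and 8.89 CPM. Its level at day 11 was 1.95 times (1.77 to 2.15) that at day 6. Over the whole library, *Klf2* and *Klf4* were thus still present at day 11. The cells that held *Klf2* differed by day. Those with 3 or more *Pou5f1* UMIs had 94.5% of its UMIs at day 4 and 13.9% at day 6. Where both genes were found is described further on.

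**Figure D1:**
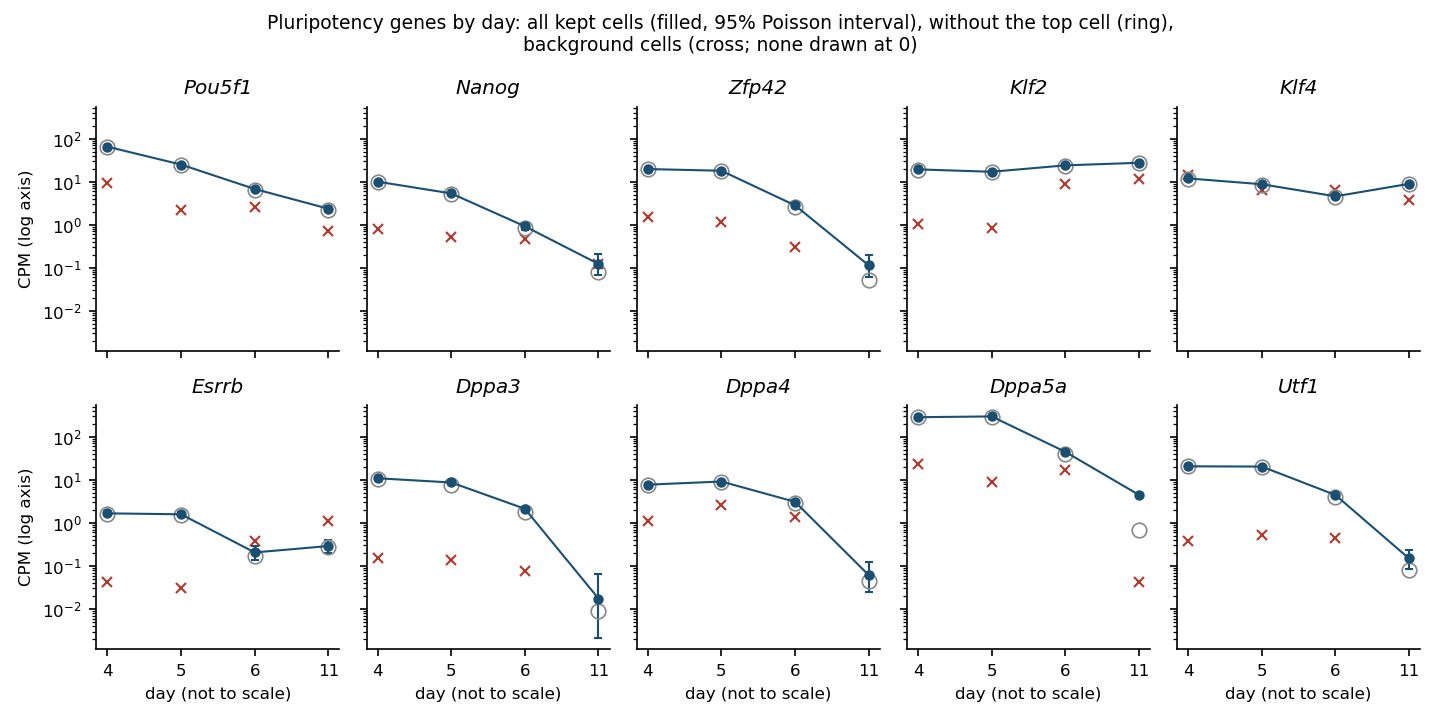
Level of each member at days 4, 5, 6 and 11 (x axis, not to scale) in CPM on a log axis, with 95% Poisson intervals around filled points for all kept cells, rings for the level without the single cell with the most UMIs, and crosses for cells high in *Hand1* or *Myl7*. Every gene but *Klf2* is lower at day 6 than at day 5, *Klf4* is higher at day 11 than at day 6, and the ring of *Dppa5a* at day 11 sits at 0.694 CPM against 4.49 CPM with the cell.

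Counted against a fold of 2, the loss fell between day 5 and day 6. From day 4 to day 5, 1 of the 9 members above the level limit (*Pou5f1*) had a ratio of 0.5 or less, beside 5.16% of 9691 genes. From day 5 to day 6 this was so for 7 of 9, the exceptions being *Klf2* and *Klf4*, beside 5.21% of 10253 genes. Here the median ratio of the members was 0.245 and that of all genes 1.14. From day 6 to day 11 only 4 members were still above the limit, and 2 of them, *Pou5f1* and *Dppa5a*, were at 0.5 or less, beside 4.41% of genes. Between the ends of the series 7 of 9 were lower by the fold, beside 8.86% of genes, with a median ratio of 0.0123 against 1.20. In no step was a member higher by the fold, beside 8.65%, 14.0%, 11.8% and 25.4% of genes in these 4 comparisons.

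Of the list of other pluripotency genes, 6 were lower and 2 higher by the fold among 20 counted from day 4 to day 5, and 8 were lower and 4 higher among 19 from day 5 to day 6. From day 4 to day 5, 8 of 14 primed epiblast genes and 10 of 12 genes of streak and nascent mesoderm were lower by the fold, and none was higher.

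Among members above the level limit, the lowest ratios from day 5 to day 6 were those of *Dppa5a* with a ratio of 0.151, *Zfp42* with 0.157 and *Nanog* with 0.172. *Esrrb*, under the limit, had 0.130 (0.0870 to 0.189), from 315 and 31 UMIs. *Utf1* followed with 0.219, *Dppa3* with 0.245, *Pou5f1* with 0.271 and *Dppa4* with 0.338. *Klf4* was lower by less than the fold, at 0.524 (0.479 to 0.573), though by more than the fold once mitochondrial and ribosomal protein genes were left out of the totals, and *Klf2* was higher, at 1.41 (1.34 to 1.476).

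For *Dppa5a* the share of positive cells and the level parted over the first step. The share of cells positive for *Dppa5a* was 19.5%, 9.09%, 1.03% and 0.0532% after thinning, and 44.9%, 20.2%, 2.70% and 0.0764% without it. At day 5 fewer cells thus held it while its level was no lower. In the comparison cells its thinned share was 10.8%, 2.13%, 1.06% and 0%, so at day 6 the share over the whole library was no higher than in them. That day 6 share rests on few of 473 comparison cells. Before thinning, 1 of them, with 3 or more *Pou5f1* UMIs, held 209 of their 228 *Dppa5a* UMIs. *Zfp42* was in 4.65%, 3.87%, 0.420% and 0% of thinned cells, *Utf1* in 5.11%, 3.86%, 0.534% and 0.0133%, and *Nanog* in 3.91%, 1.61%, 0.210% and 0.0532%. None of 7524 thinned day 11 cells held *Zfp42*, which allows a share of up to 0.0490%, and *Dppa3* was likewise at 0.

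How few cells carried a gene can be put another way. At day 4 the UMI-richest 48 cells held 50% of all *Dppa3* UMIs, and 284 cells did so for *Pou5f1*. At day 6 this took 4 cells for *Dppa3*, 8 for *Dppa5a*, 8 for *Utf1* and 12 for *Pou5f1*. *Klf2* and *Klf4* remained spread, with 146 and 207 cells at day 11. At day 5 a single cell with 239 UMIs gave 13.9% of all *Dppa3*, and the level without it was 7.48 CPM. A single cell also set the day 11 level of *Dppa5a*, with 432 of its 511 UMIs (84.5%).

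Many members were detected in the same cells. After thinning, 3 or more members were seen in 7.26%, 4.63%, 0.553% and 0.0266% of cells at days 4, 5, 6 and 11, and 5 or more in 3.54%, 2.79%, 0.362% and 0.0133%. Without thinning, 227 cells at day 4 held 8 or more members, as did 174 at day 5, 22 at day 6 and 1 at day 11. Nearly all of these, 225, 164, 22 and 1, had at least 3 UMIs of *Pou5f1*. All 10 members were present in 40, 55, 3 and 1 cells. The reverse, 4 or more other members without a UMI of *Pou5f1*, was seen in 9 of 4165 cells at day 4, 20 of 5482 at day 5 and 3 of 4961 at day 6, and in none of 7609 at day 11.

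Co-detection at days 4 and 5 was read from thinned cells. Of 1139 cells with *Pou5f1* at day 4, 50.7% (47.8% to 53.7%) also had *Dppa5a*, and of 403 such cells at day 5, 63.8% (58.9% to 68.5%). *Utf1* was in 24.0% and 43.9% of them, *Zfp42* in 19.4% and 35.5%, and *Klf2* in 18.4% and 33.7%. *Dppa4* was in 12.8% and 21.8%, *Dppa3* in 10.7% and 17.9%, and *Nanog* in 15.01% and 16.6%. Each of these shares was higher at day 5, when cells with *Pou5f1* were fewer. For *Nanog* the difference was small.

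In the other direction *Pou5f1* was found in most cells with a rarer member. It was in 81.5% of *Utf1* cells at day 4 and 71.1% at day 5, in 80.3% and 70.6% of *Dppa3* cells, and in 78.1% and 60.4% of *Klf2* cells. *Dppa4* differed, with *Pou5f1* in 65.2% of its cells at day 4 and 37.0% at day 5. *Klf4* cells had it least often, at 15.9% and 14.7%, against 17.4% and 6.24% of all cells. Among the 152 cells with *Dppa3* at day 4, *Dppa5a* was in 95.4% and *Klf2* in 68.4%, and among the 102 at day 5 in 97.1% and 79.4%.

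For each pair, the share of cells with both was divided by the product of the separate shares. Without *Klf4*, all 36 pairs were at 2 or more on both days, with a median of 9.03 at day 4 and 11.0 at day 5. The lowest was *Dppa5a* with *Pou5f1* at day 4, at 2.61, and the highest *Dppa3* with *Esrrb* at day 5, at 30.1. Of the 9 pairs with *Klf4*, 1 reached 2 at day 4, with a median of 1.18, and 9 did at day 5, with a median of 3.17. Cells share a library, and genes with few UMIs per cell are often missed, so these ratios describe the libraries and carry no test. Pairs of other genes were not computed, so the counts of pairs at 2 or more have no background share beside them. Setting *Klf4* apart was not part of the plan for these pairs.

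**Figure D2:**
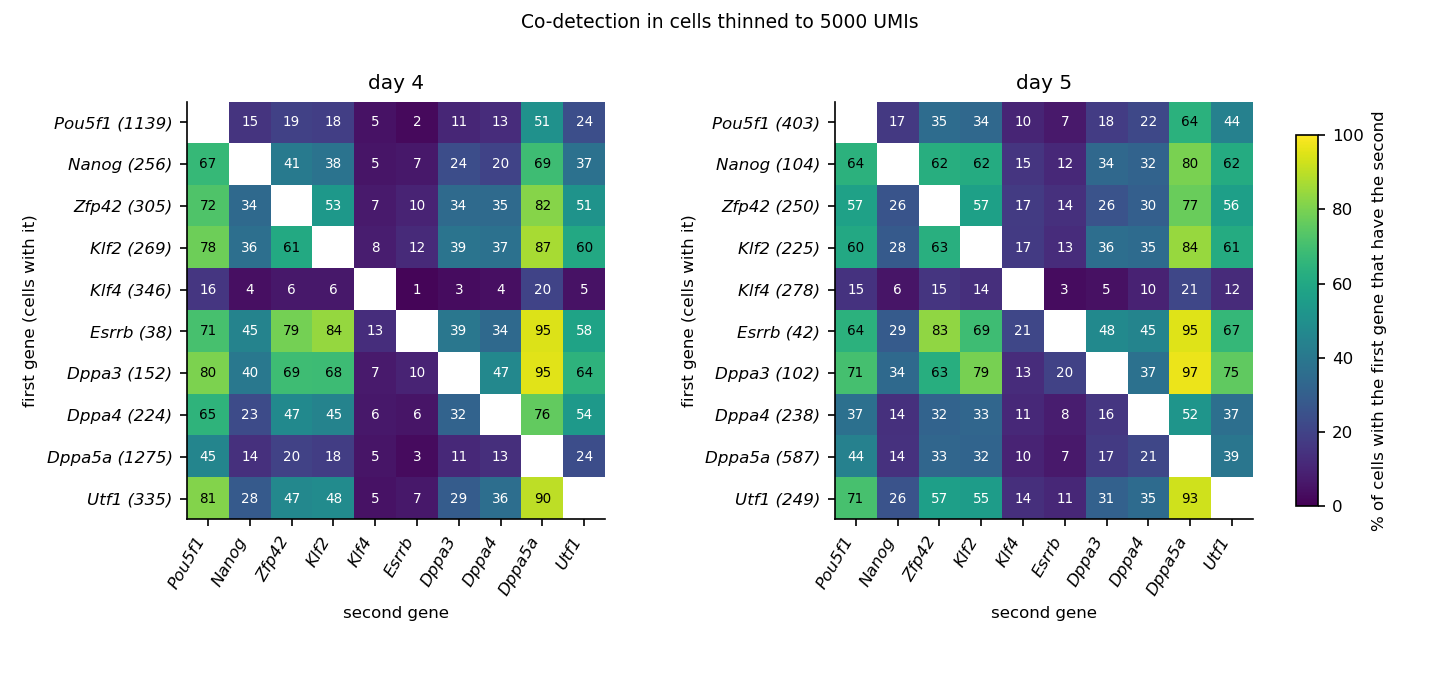
Share of cells with the gene of the row (number of cells in parentheses) that also have the gene of the column, in percent, at days 4 and 5 after thinning to 5000 UMIs. The *Dppa5a* column is bright on both days, reaching 95.4% and 97.1% in *Dppa3* cells, and the *Klf4* row is dark, with *Pou5f1* at 15.9% and 14.7%.

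Over all cells of a day, the genes whose log values correlated best with those of *Pou5f1* were, at day 4, *L1td1* (Pearson r = 0.726), *Dppa5a* (0.706), *Chchd10* (0.667), *Utf1* (0.626) and *Tcea3* (0.597), over 6555 cells of 1 library. At day 5 they were *Utf1* (0.811), *Dppa5a* (0.810), *L1td1* (0.734), *Zfp42* (0.695) and *Klf2* (0.675), over 6457 cells. *Klf4* had r = −0.00927 at day 4 and 0.243 at day 5. Cells of a library share its depth and free RNA.

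Cells with 3 or more UMIs of *Pou5f1* were then taken as a range of counts, not a cell type. They numbered 991 at day 4 (15.1% of cells, 14.3% to 16.0%), 361 at day 5 (5.59%, 5.04% to 6.18%), 27 at day 6 (0.514%, 0.339% to 0.747%) and 1 at day 11 (0.0127%). Before filtering, the deposited matrices held 1220, 448, 30 and 1 such cells, of which 207, 65, 1 and 0 were removed as likely doublets. Doublet scores above the limit were more frequent in them than in cells without *Pou5f1* at day 4, with 17.3% against 4.93%, and at day 5, with 15.3% against 7.07%. Their median depth was 26128, 31545 and 43834 UMIs at days 4, 5 and 6, against 24041, 28077.5 and 24277 UMIs in cells with no *Pou5f1* UMI. At the edge of the range lay 162 cells with exactly 3 UMIs and 351 with exactly 2 at day 4, and 53 and 117 at day 5. At day 6 no cell had exactly 3 and 16 had 2, with a median of 23 UMIs inside the range.

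These cells held nearly all the UMIs of most members at days 4 and 5. For *Dppa3* the share was 97.1% at day 4, 86.4% at day 5 and 96.9% at day 6. *Esrrb* gave 97.8%, 91.7% and 90.3%, *Utf1* 96.5%, 91.7% and 95.2%, and *Dppa5a* 91.4%, 91.2% and 97.1%. *Zfp42* and *Nanog* were between 81.1% and 90.7% on the 3 days. *Klf2*, *Dppa4* and *Klf4* departed from this. *Klf2* went from 94.5% and 87.2% to 13.9% at day 6, *Dppa4* from 83.9% and 58.0% to 28.4%, and *Klf4* had 18.0%, 25.2% and 2.04%.

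The comparison cells high in *Hand1* had 0.238% to 2.75% of these cells' level of the other members at day 4, apart from *Klf4*, which is described with the marker genes of other cells.

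In cells with *Pou5f1* at 3 or more UMIs, *Dppa5a*, *Utf1*, *Klf2* and *Zfp42* were the members in the largest shares of cells at days 5 and 6, and all 9 others had a higher level at day 5 than at day 4. *Dppa5a* read 1598, 4127 and 4461 CPM at days 4, 5 and 6, and was in 64.0%, 80.6% and 100% of the thinned cells. In cells without *Pou5f1* it was in 10.1%, 3.61% and 0.505%. *Utf1* read 122, 284 and 435 CPM, in 31.3%, 58.7% and 81.5% of cells. Both the level and the share, the latter at fixed depth, were higher on each later day.

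*Klf2* read 112, 226 and 341 CPM, in 24.0%, 45.4% and 66.7% of cells. *Zfp42* read 109, 233 and 259 CPM, in 25.1%, 47.9% and 63.0%. *Dppa3* read 64.8, 114 and 212 CPM, and was in 14.3%, 24.7% and 33.3%. At day 5, 1 of these cells held 239 of their 1491 *Dppa3* UMIs. At this depth *Dppa3* was thus undetected in most of these cells.

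*Nanog* read 49.8, 69.2 and 83.9 CPM, in 19.5%, 21.3% and 33.3% of cells, and *Dppa4* 39.8, 80.8 and 90.1 CPM, in 17.1%, 28.8% and 33.3%. *Esrrb* read 10.0, 22.2 and 19.11 CPM, in 3.63%, 10.2% and 3.70%. *Klf4* was the member that did not stand out: at day 4 its level, 13.2 CPM, was 1.05 times (0.941 to 1.17) that in cells without *Pou5f1*. The ratio was 5.18 at day 5, where it read 33.5 CPM, and 2.10 at day 6, where it read 9.55 CPM.

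The ratio of day 5 to day 4 inside these cells was 2.58 for *Dppa5a*, 2.54 for *Klf4*, 2.33 for *Utf1*, 2.22 for *Esrrb*, 2.13 for *Zfp42*, 2.03 for *Dppa4*, 2.02 for *Klf2*, 1.77 for *Dppa3* and 1.39 for *Nanog*. *Pou5f1*, which defines the cells, was at 0.948 (0.915 to 0.983). The day 5 level of *Dppa3* included the 1 cell with 239 of 1491 UMIs, and its ratios without that cell were not computed. From day 5 to day 6 the ratios were 1.85 for *Dppa3*, 1.54 for *Pou5f1*, 1.53 for *Utf1*, 1.51 for *Klf2*, 1.11 for *Zfp42* and for *Dppa4*, 1.08 for *Dppa5a* and 0.861 for *Esrrb*. *Nanog* had 1.21 with an interval that includes no difference (0.997 to 1.47), and *Klf4* was lower at 0.285 (0.155 to 0.484). The median cell had 1 other member at day 4, 3 at day 5 and 5 at day 6 after thinning, and 27.6%, 14.4% and 0% had none. At least 4 others were in 24.5%, 49.0% and 63.0% of these cells, against 0.0240%, 0.0730% and 0.0202% of cells without *Pou5f1*.

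**Figure D3:**
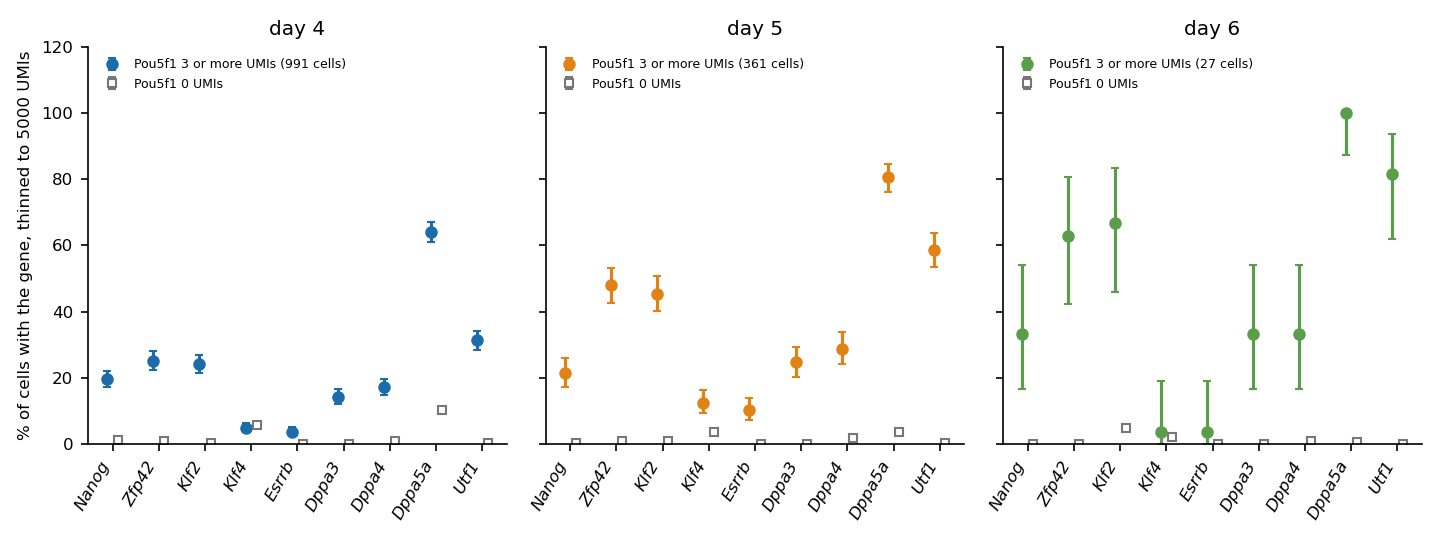
Share of cells (y axis, percent after thinning to 5000 UMIs) with each of the other 9 members, in cells with 3 or more UMIs of *Pou5f1* (filled, 95% Clopper-Pearson interval) and with none (open), at days 4, 5 and 6. *Dppa5a* goes from 64.0% to 80.6% and 100% of filled points. *Klf4* stays low, at 4.74%, 12.5% and 3.70%, as does *Esrrb*, at 3.63%, 10.2% and 3.70%.

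The day 4 cells differed among themselves in both *Sox2* and *T*. Divided by *Sox2*, the partner of Oct4, a split chosen after the values were seen, 351 cells had 3 or more *Sox2* UMIs, 446 had none and 194 lay between, with median depths of 30924 UMIs in the first and 22706 in the second. *Pou5f1* was 417 and 248 CPM in the first and second of these. *Dppa3* was 148 against 2.00 CPM, a ratio of 74.2, and *Klf2* 253 against 6.16 CPM, a ratio of 41.0. *Esrrb* had a ratio of 28.5, *Zfp42* 19.3, *Dppa5a* 12.2, *Utf1* 10.8, *Dppa4* 10.2, *Nanog* 3.97 and *Klf4* 1.95. *Pou5f1* defines the cells, so it had to be present on both sides. Of the other members, *Dppa3* and *Klf2* were nearly limited to the *Sox2* side, while *Nanog* and *Klf4* extended past it. *Dppa5a* did so as well, at 3301 against 270 CPM and in 91.7% against 43.7% of thinned cells.

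Divided instead by *T* (Brachyury), the T-box factor of the primitive streak, 430 day 4 cells had 3 or more UMIs, 394 had none and 167 lay between. *Pou5f1* was 359 and 352 CPM, a ratio without to with *T* of 0.981 (0.942 to 1.02). *Klf2* was 46.5 CPM with *T* and 208 CPM without, *Dppa3* 29.4 and 121 CPM, *Zfp42* 53.0 and 188 CPM, and *Nanog* 32.8 and 71.3 CPM. At day 5, 44 cells had 3 or more *T* UMIs against 261 with none, and the *Sox2* split was 191 against 124 cells. *Klf2* was then 365 CPM with *Sox2* and 16.5 CPM without, and *Dppa5a* 6189 and 795 CPM. For *Dppa3* the ratio at day 5 was only 2.08, as 239 of the 288 UMIs on the side without *Sox2* were in 1 cell, and its thinned share was 42.4% against 4.84%. Its level at day 5 was 149 CPM with *Sox2* and 71.8 CPM without, beside 148 and 2.00 CPM at day 4.

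**Figure D4:**
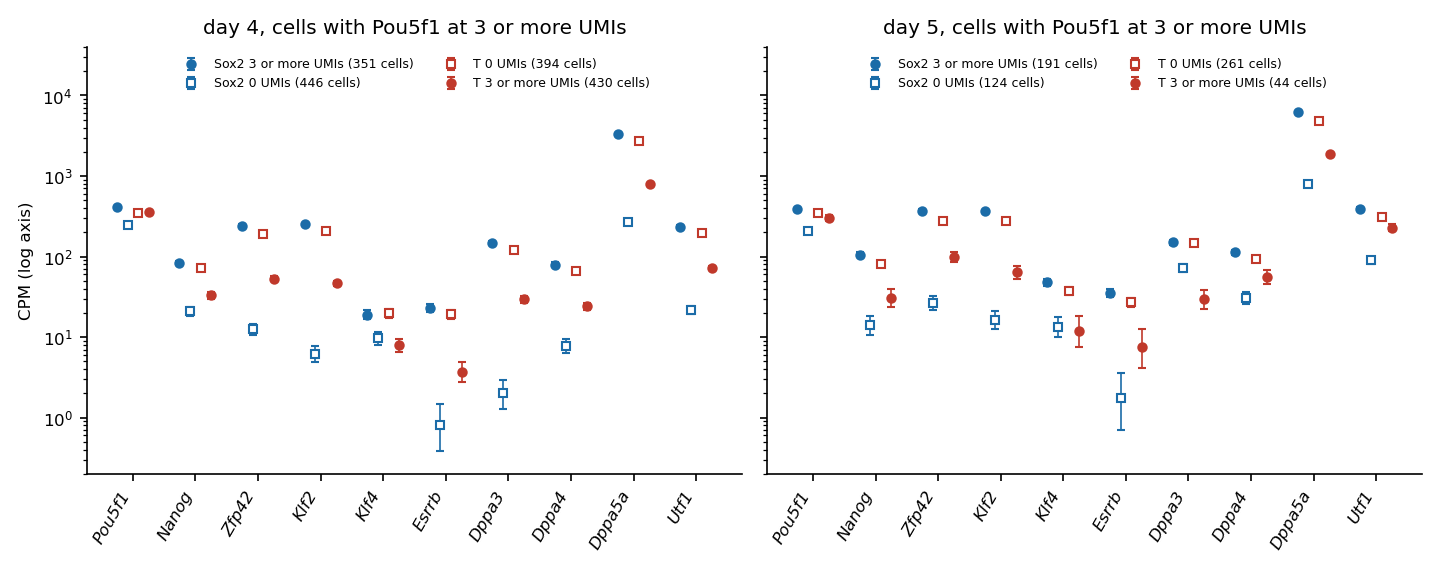
Level in CPM (log axis, 95% Poisson interval) of each member in cells with 3 or more *Pou5f1* UMIs at days 4 and 5, divided by *Sox2* (blue) or *T* (red). At day 4 *Dppa3* is 148 CPM with *Sox2* and 2.00 CPM without, and 29.4 CPM with *T* and 121 CPM without. *Pou5f1*, which defines the cells, is 417 CPM with *Sox2* and 248 CPM without, and 359 CPM with *T* and 352 CPM without.

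Other genes of the same cells differed by day. *T* read 155.4, 27.7 and 18.4 CPM in cells with 3 or more *Pou5f1* UMIs at days 4, 5 and 6, and the streak ligand *Fgf8* 246, 22.1 and 41.6 CPM. *Mesp1*, of nascent mesoderm, read 115, 10.4 and 0.68 CPM. Of the primed epiblast list, *Fgf5* read 12.1, 0.998 and 0.68 CPM, the de novo methyltransferase gene *Dnmt3b* 214, 45.5 and 164 CPM, and *Otx2* 26.5, 7.91 and 24.6 CPM. *Sox2* was higher on each later day, with 111, 152 and 241 CPM. Of the 14 genes in the germ-cell list, 9, 11 and 11 reached 5 CPM in these cells or in cells without *Pou5f1*. *Tfap2c* was at 32.4, 37.3 and 68.9 CPM and *Ifitm3* at 103, 78.8 and 222 CPM. The germ-cell RNA-binding gene *Dnd1* was at 26.7, 20.04 and 57.3 CPM. *Prdm14*, of the same list, was low, at 1.41, 3.15 and 4.78 CPM. The late germ-cell genes *Dazl* and *Ddx4* were highest at day 5, with 19.12 and 34.5 CPM.

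Against cells without *Pou5f1*, the list of other pluripotency genes had 19 of 29 at 2-fold or higher at day 4, 24 of 31 at day 5 and 21 of 31 at day 6, beside 7.53%, 10.1% and 8.90% of all genes. The primed epiblast list had 14 of 16, 12 of 14 and 12 of 15, and the germ-cell list 8 of 9, 9 of 11 and 9 of 11. Their median ratios were 5.55, 8.96 and 11.7 for other pluripotency genes, 3.99, 5.42 and 7.48 for primed epiblast and 3.001, 8.80 and 9.32 for germ cells. No cardiac gene was higher by the fold, and 8 of 9, 8 of 9 and 12 of 13 were lower. Endothelial genes were higher in 2 of 5, 1 of 5 and 0 of 11, definitive endoderm genes in 7 of 12, 3 of 11 and 4 of 10, and streak and nascent mesoderm genes in 4 of 13, 2 of 8 and 4 of 5. Of neural and caudal epiblast genes, 3 of 7, 1 of 5 and 1 of 8 were higher and 2, 4 and 7 lower. The share of all genes lower by the fold in these cells was not computed, so the counts of lower genes have no background beside them. The median ratio of all genes was 0.949, 0.935 and 0.821.

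Genes were also ranked by this ratio with members left out and genes of the lists left in. The highest ratios at day 4 were those of *Tdh* (113 CPM), which encodes the threonine dehydrogenase of mouse ES cells, *L1td1*, *Mt2*, *Rbmxl2*, *Mylpf*, *Pim2*, *Hspb1*, *Tcea3*, *Mt1* and *Chchd10*. At day 5 they were *Tdh* (223 CPM), *Ooep* (193 CPM), the NODAL co-receptor gene *Tdgf1* (181 CPM), *Mylpf*, *L1td1*, *Gdf3* (53.4 CPM), *Triml2* (62.0 CPM), *Dppa2* (51.1 CPM), *Sox2* and *Fbxo15*. At day 6 *L1td1*, *Tdh*, *Ooep* (139 CPM), *Mt2*, *Morc1* (113 CPM), *Spp1*, *Rhox9*, *Dnmt3l*, *Fbxo15* and *Rhox6* led. Some of these were already counted above: *L1td1*, *Tdgf1*, *Gdf3*, *Dppa2*, *Sox2*, *Fbxo15*, *Spp1* and *Dnmt3l* are in the list of other pluripotency genes, and *Pim2* is in the primed epiblast list.

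Several of these lie beside a member in the genome, which was noticed after the lists had been seen. On GRCm38 with GENCODE vM21, *Ooep* is 7932 bp from *Dppa5a* on chromosome 9 (78367052 to 78368177, − strand), and *Gdf3* is 16323 bp from *Dppa3* on chromosome 6 (122626410 to 122630272, + strand). *Triml2* is 101182 bp from *Zfp42* on chromosome 8 (43295063 to 43306980, − strand), and *Dppa2* is 9671 bp from *Dppa4* on chromosome 16 (48283733 to 48294237, + strand). Within 200 kb of a member thus lay 4 of the 10 leading genes at day 5, against 11 of 2394 genes that could have been named (0.459%), 2 of 10 at day 6 (*Ooep* and *Morc1*) against 0.440%, and 0 of 10 at day 4 against 0.331%. *Nanog* and *Dppa3* are themselves neighbours, 77217 bp apart. Pseudogene copies of *Dppa3*, *Dppa5a*, *Nanog* and *Zfp42*, 6 in all, are in the annotation but not in the feature list, so counts of these members may be affected by shared reads.

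At day 6 the 27 cells with 3 or more *Pou5f1* UMIs could be read one by one. *Dppa5a* was in 27 of 27 with a lowest, median and highest count of 9, 246 and 751 UMIs, and *Utf1* in 27 with 1, 21 and 76 UMIs. *Klf2* was in 25 with 0, 14 and 93 UMIs, *Zfp42* in 25 with 0, 8 and 37, *Nanog* in 23 with 0, 4 and 15, *Dppa4* in 22 with 0, 3 and 18, and *Dppa3* in 21 with 0, 5 and 51. *Esrrb* was in 14 with at most 6 UMIs and *Klf4* in 7 with at most 4. Most of these cells therefore kept the wider set, and they were not alike. Cells 14 and 16, in falling order of *Pou5f1*, had 18 and 8 UMIs of *T* and held 4 members each. Cell 24 had 323 UMIs of *Myl7* and 64 of *Tnnt2*, 2 cardiomyocyte genes, and cell 22 had 34 of *Myl7*. All of these cells had passed the doublet limit. Cells 24 and 22 held 112664 and 61510 UMIs, against a median of 24695 in the kept cells of the day and an upper limit of 123324. Whether they were mixed droplets was not tested.

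The 1 cell at day 11 had 42979 UMIs against a median of 11415. It held all 10 members, with 21 UMIs of *Pou5f1*, 432 of *Dppa5a*, 14 of *Klf2*, 8 of *Utf1*, 7 of *Zfp42* and 5 of *Nanog*, and 1 each of *Klf4*, *Esrrb*, *Dppa3* and *Dppa4*. It also had 14 UMIs of *Sox2*, 42 of *Myl7* and 97 of *Tnnt2*. Without it the day 11 level of *Dppa5a* was 0.694 CPM. The remaining *Pou5f1* of day 11 was spread thinly, with 239 cells holding 1 or 2 UMIs.

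**Figure D5:**
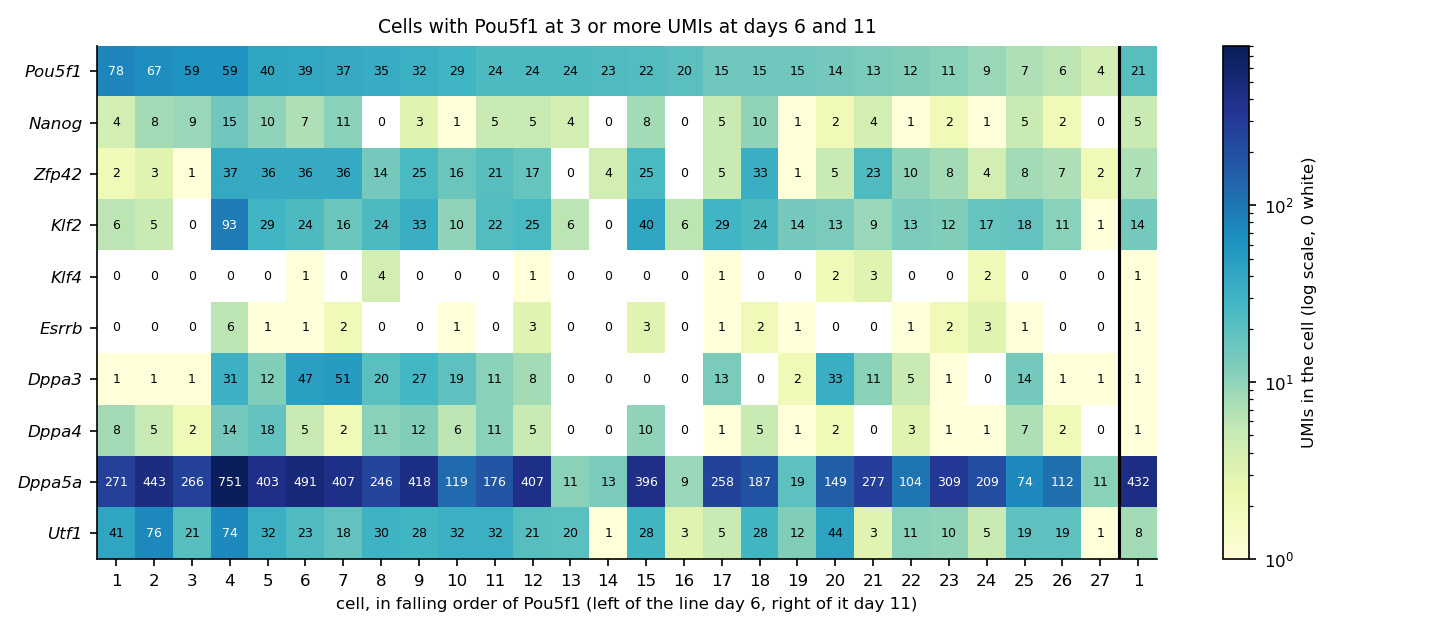
UMIs of each member in each of the 27 cells of day 6 and the 1 cell of day 11 with 3 or more *Pou5f1* UMIs, in falling order of *Pou5f1*, on a log colour scale with 0 in white. *Dppa5a* and *Utf1* are filled in every cell, *Klf4* in 7 of the 27, and the day 11 cell has 432 UMIs of *Dppa5a*.

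Members were also read in cells with 3 or more UMIs of 1 other gene. Such gates overlap with each other and with the *Pou5f1* range, which holds 351 of the 456 *Sox2* cells and 430 of the 699 *T* cells at day 4. At day 4 the 171 cells with the germ-cell and surface-ectoderm factor *Tfap2c* had the highest *Dppa3* of the gates described here, at 169.5 CPM, with 352 CPM of *Pou5f1*. In *Sox2* cells (456) *Pou5f1* was 343 CPM and *Dppa3* 123 CPM. In *T* cells (699) *Pou5f1* was 244 CPM (238 to 251) and *Dppa3* 19.3 CPM (17.5 to 21.3). In cells with *Tbx6*, of presomitic mesoderm, *Pou5f1* was 59.5 CPM and *Dppa3* 0.33 CPM. In cells with *Kdr*, of vascular and cardiac progenitors, *Pou5f1* was 8.06 CPM and *Klf4* 16.4 CPM, the latter above the 11.9 CPM of all cells.

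At day 6 most *Klf2* was in cells with endothelial genes. Cells with 3 or more UMIs of *Cdh5* (VE-cadherin) or *Pecam1*, and *Pou5f1* under 3, numbered 4, 93, 371 and 361 at the 4 days. They held 1.19% of *Klf2* UMIs at day 5, 71.3% at day 6 and 37.8% at day 11. Of all cells, 7.06% were of this kind at day 6 and 4.60% at day 11. Their *Klf2* level was 9.85 CPM (7.04 to 13.4) at day 5, 177 CPM (170 to 184) at day 6 and 131 CPM (124 to 139) at day 11. At day 5 their level was above the 1.65 CPM of cells with no *Pou5f1* UMI and under the 226 CPM of cells with 3 or more.

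In *Cdh5* cells of day 6 *Klf2* was 22.2 times (20.7 to 23.9) the level of the other cells, and at day 11 6.37 times (5.90 to 6.88). At day 11 the 51 cells with *Tyrobp*, a gene of macrophages, had as much *Klf2*, 128 CPM (111 to 148), as *Cdh5* cells with 128 CPM (120 to 137). Cells with *Wt1*, of epicardium and mesothelium, had 56.5 CPM (50.2 to 63.4), and those with the fibroblast collagen gene *Col1a1* had 27.3 CPM, near the level of all cells. *Wt1* cells at day 6 had 1.06 CPM (0.604 to 1.72).

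*Klf4* was spread more widely. It was 10.9 CPM in *Cdh5* cells at day 6 and 16.6 CPM at day 11, when *Wt1* cells had 19.7 CPM and *Col1a1* cells 14.5 CPM. *Tyrobp* cells had 2.67 CPM (0.728 to 6.84), so that the macrophage gate was high for *Klf2* without *Klf4*. At day 4 cells high in *Hand1* had 14.3 CPM of *Klf4*, 108% of the level in cells with 3 or more *Pou5f1* UMIs, and they are no background for this gene.

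*Dppa4* was found in cells with endothelial genes too, at days 5 and 6. It was 16.3 CPM (12.6 to 20.7) in the combined *Cdh5* or *Pecam1* cells at day 5 and 12.7 CPM (10.9 to 14.6) at day 6, and these cells held 3.64% and 39.4% of its UMIs. In *Pecam1* cells of day 6 it was 7.67 times (6.34 to 9.27) the level of the others. Unlike the combined cells, this gate did not leave out cells with 3 or more *Pou5f1* UMIs, which held 28.4% of *Dppa4* UMIs that day. By day 11 *Dppa4* was at 1 UMI in the combined cells.

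*Esrrb* at day 11 lay in cells with cardiomyocyte genes, with 31 of its 33 UMIs in the 1629 cells with *Tnnt2*, at 0.946 CPM (0.643 to 1.34) against 0.0247 CPM elsewhere. At day 6 *Esrrb* was 0.549 CPM (0.292 to 0.938) in *Tnnt2* cells against 0.142 CPM, from 13 UMIs. This gate did not leave out the *Pou5f1* range. In falling order of *Pou5f1*, cells 4, 22 and 24 of that range passed it with 6, 1 and 3 *Esrrb* UMIs. The day 6 value thus came mostly from cells with 3 or more *Pou5f1* UMIs. Among thinned cells high in *Myl7* at day 11 the share with *Esrrb* was 0.897%, above the 0.159% of all cells, so these cells are no background for this gene.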

How the data were processed

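Single-cell RNA was measured with the Chromium 3′ assay in 4 libraries, 1 per day, grouped by the day in the labels. For each library the authors deposited raw UMI counts for each gene in each called cell, aligned to mm10 according to the submitters' notes. Those notes name Cell Ranger 3.1.0, which the matrix headers give for days 4 to 6, while the day 11 header gives 6.0.1, so day 11 may differ by software. The libraries hold 227398362, 236714826, 182150138 and 149169498 UMIs.

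Starting from the deposited counts, cells were kept with more than 200 genes, under 20% mitochondrial and over 5% ribosomal protein UMIs, and a total, on a log10 scale, no more than 3 scaled median absolute deviations from its library's median. The 8% of cells with the highest doublet score, from neighbours among simulated doublets, were then removed. CPM, percent and ratio values were computed here. Between days, genes with 5 CPM in either day were counted at a fold of 2. Thinning drew 5000 UMIs per cell with a fixed seed and left out shallower cells, 0, 0, 12 and 325 at the 4 days. Comparison cells had 10 or more UMIs of *Hand1* at days 4 and 5, and 50 or 100 or more of *Myl7* at days 6 and 11. Intervals are exact Poisson (sums), Clopper-Pearson (shares) and conditional binomial (ratios of CPM). Their coverage was checked only on counts drawn from the Poisson and binomial models that they assume. Clumping of UMIs in few cells was not simulated. For a share of 0 the upper end of its Clopper-Pearson interval was given as the limit. UMIs were counted from the 3′ end, and levels were not scaled by length.

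The members, lists and splits were chosen with earlier results of these data known. Genes named are the members, the fixed lists, the 10 genes with the highest ratio (of CPM plus 1, at 50 CPM or more) in cells with 3 or more *Pou5f1* UMIs against none at days 4, 5 and 6, and the 5 most correlated with *Pou5f1* among genes in 5% of cells. Gates needed 3 UMIs of 1 gene and 50 cells. Alternatives were other filters, depths, thresholds and scalings. Python 3.11.15, numpy 2.4.6, scipy 1.17.1 and scikit-learn 1.9.0 were used.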

Additional observations from a re-analysis of the deposited data

How the results depend on the processing

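With 1 library per day, no value has a replicate error, and genes with few UMIs are limited by depth, most of all at day 11. No paired analysis was possible because each day has a single library. Among the members' ratios between days that were past the fold of 2, none changed direction under another filter or scaling. Ratios nearer to no difference were not checked for a change of direction. With every deposited cell the level of *Pou5f1* at day 4 was 67.0 CPM, and likewise with doublets left in. Members at a ratio of 0.5 or less from day 6 to day 11 numbered 1 with the mean of each cell's CPM and 3 without mitochondrial and ribosomal protein genes, where *Klf4* joined the 7 lower members from day 5 to day 6 to make 8. The day 4 share of cells with *Pou5f1* was 12.5% at 3000 UMIs, 24.4% at 10000 and 7.84% at 2 or more UMIs. The share with 3 or more members was 8.09% with every cell, 8.01% with doublets, 5.37% at 3000 UMIs, 9.70% at 10000 and 3.83% at 2 or more UMIs. *Dppa5a* in *Pou5f1* cells was 55.3% at 10000 UMIs and 60.5% at 2 or more UMIs. At day 5 *Dppa5a* was in 69.2% of cells with *Pou5f1* at 2 or more, 91.8% at 5 or more and 73.7% when 2 UMIs were asked of it. Cells in the *Pou5f1* range at day 4 were 16.7% of every cell, 16.8% with doublets, 20.5% at 2 or more UMIs, 10.9% at 5 or more and 16.0% at 100 CPM. Of all genes, 23.0% were at 0.5 or less from day 5 to day 6 when every gene with a UMI was counted, and 1.67% at a fold of 4. Leaving out the cell with the most UMIs, an alternative chosen after seeing the data, kept 30 of 40 levels within their counting interval.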
